A study of Mus musculus with 2 samples.

Results

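Endothelial cells (ECs) carry on their surface, or release, many of the proteins that start, hold back or dissolve a blood clot. The 9 genes described here are the endothelial coagulation and fibrinolysis genes Vwf, Thbd, Procr, Tfpi, Plat, Plau, Plaur, F8 and F2r chosen by name, and all 9 were listed in both count tables. The tables hold 17641 genes for normal endothelial cells (NECs) and 15644 for tumor endothelial cells (TECs), and 14976 genes are in both. The deposited data are 2 droplet single-cell libraries of mouse cells sorted as CD45-/CD31+, with 1 library per condition. NECs came from normal mammary glands of C57BL/6 mice aged 6 to 8 weeks, and TECs came from E0771 mammary tumors, which grow from a mouse mammary cancer cell line implanted in the mammary fat pad. Glands and tumors were pooled before the sort, the deposited labels of the TEC library give no strain or age, and no genotype is given for either library. The names of the tumor cells and of E0771 also stand in label fields of the normal library, which was read as NECs from its title. With 1 pool per condition the cells of a library cannot stand in for replicates, and no p-value is given. Every interval below is a 95% interval for counting error only and does not hold the spread between mice, tumors or libraries.

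VWF is stored in Weibel-Palade bodies of ECs, catches platelets where a vessel is injured, and carries factor VIII (F8), a cofactor of the reactions that make thrombin. Thrombomodulin (Thbd) turns thrombin from a clotting enzyme into an activator of the anticoagulant protein C. The endothelial protein C receptor (Procr) binds protein C for this step, and tissue factor pathway inhibitor (Tfpi) blocks the start of clotting. Tissue-type (Plat) and urokinase-type (Plau) plasminogen activators make plasmin, which dissolves fibrin, and Plaur is the receptor that holds urokinase on the cell surface. F2r encodes PAR1, a receptor that thrombin cuts to signal into the cell. Arteries, veins and capillaries are known to differ in how much of these proteins their ECs make, and tumor vessels are known for leakiness and for clotting in and around them.

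Cells were kept if they had 200 or more genes, under 10% mitochondrial unique molecular identifiers (UMIs, which count RNA molecules), no UMI of the immune, smooth muscle, epithelial and pericyte genes Ptprc, Myh11, Epcam and Cspg4, and at least 1 UMI of Cdh5 or Pecam1. In the TEC library, Cdh5 plus Pecam1 also had to exceed the sum of the cancer cell genes Rhox5, Hmga2 and Krt8. This left 4940 of 9047 NEC barcodes with a median of 2976.5 UMIs and 261 of 704 TEC barcodes with a median of 16989, so that kept TECs held many more UMIs per cell. Levels are therefore given as CPM, the UMIs of a gene per 1000000 UMIs of a group's cells. The 10 endothelial markers checked, the pair used to keep cells among them, summed to 8883 CPM in NECs and 8328 in TECs, against 113 in the epithelial cells of the normal library and 123 in the cancer-like cells of the tumor library. In the epithelial cells, 6 salivary gland markers summed to 125200 CPM, against 11530 for 8 general epithelial markers, and the salivary sum was 1897 CPM in kept NECs, so that the normal library holds RNA of salivary gland genes beside its mammary label. A total of 3 barcodes occurred in both libraries and 0 of them among the kept cells.

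Within NECs, a cell was called arterial if it had a UMI of the arterial genes Gja5 or Bmx and venous if it had a UMI of the venous genes Lbp or Ackr1. There were 370 arterial and 383 venous cells, 31 with both kinds and 4156 with neither, called other. The 31 cells with both kinds were left out of the class levels and ratios, so classes are ranked only among arterial, venous and other NECs. The summed CPM of 12 arterial markers was 5658 in the arterial class and 1054 in the other class, and that of 10 venous markers was 4183 in the venous class and 538 in the other class. Those sums include the class genes themselves. The other class was rich in capillary markers, which summed to 30700 CPM. The venous class also held high endothelial venule (HEV) markers at 41570 CPM, against 1455 in the other class, and the HEV gene Glycam1 alone stood at 39210 CPM there. The 8 lymphatic markers summed to 1967 CPM in the venous class against 173 in the other class, and Ccl21a, which HEVs also make, accounted for 1800 CPM of it.

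On GRCm38, the build named mm10 in the labels, Vwf lies on chromosome 6 at 125546774-125686679 (+ strand), Thbd on chromosome 2 at 148404466-148408188 (- strand), Procr on chromosome 2 at 155751117-155755471 (+), Tfpi on chromosome 2 at 84432855-84476775 (-) and Plat on chromosome 8 at 22757727-22782844 (+). Plau lies on chromosome 14 at 20836660-20843385 (+), Plaur on chromosome 7 at 24462484-24475968 (+), F8 on chromosome X at 75172715-75382615 (-) and F2r on chromosome 13 at 95601803-95618487 (-). All 9 are protein-coding genes, and the positions are those of the GENCODE annotation.

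Of the 9 genes, 5 have an entry in the RefSeq promoter table of GRCm38.p6 (F2r, F8, Plaur, Procr and Tfpi), and the sequence upstream of the start is shown for the 3 of them that hold the letters TGANTCA, the core that AP-1 factors bind. The 250 bases before each start are printed on the gene's strand, with TGANTCA in capitals.
Procr, chr2:155750967-155751216, + strand: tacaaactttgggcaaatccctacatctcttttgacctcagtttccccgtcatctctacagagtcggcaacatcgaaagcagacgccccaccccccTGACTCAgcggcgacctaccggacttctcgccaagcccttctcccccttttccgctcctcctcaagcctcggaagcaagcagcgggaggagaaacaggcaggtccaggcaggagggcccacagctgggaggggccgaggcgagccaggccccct
Plaur, chr7:24462233-24462482, + strand: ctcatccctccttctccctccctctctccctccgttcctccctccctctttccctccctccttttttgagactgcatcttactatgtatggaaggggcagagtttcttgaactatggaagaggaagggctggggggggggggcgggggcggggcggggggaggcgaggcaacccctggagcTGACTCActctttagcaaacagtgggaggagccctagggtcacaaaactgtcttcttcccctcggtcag
F2r, chr13:95618467-95618716, - strand: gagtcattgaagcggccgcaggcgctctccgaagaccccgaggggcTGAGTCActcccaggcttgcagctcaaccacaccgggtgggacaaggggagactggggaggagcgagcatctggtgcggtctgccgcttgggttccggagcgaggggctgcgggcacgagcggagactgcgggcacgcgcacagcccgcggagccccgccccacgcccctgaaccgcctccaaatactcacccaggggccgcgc
The match begins 154 bases before the start of Procr, 69 before that of Plaur and 204 before that of F2r. These are RefSeq starts, and they differ from the GENCODE positions given above. The Procr window runs past the GENCODE start at 155751117, and the F2r window overlaps the gene, which ends at 95618487. The F8 window and 1 of the 2 Tfpi windows lie wholly inside the GENCODE gene spans. TGANTCA reads alike on both strands and occurs in 6.75% of the 32851 upstream windows of the same length in that table, while the windows of F8 and the 2 windows of Tfpi hold none. TATAAA and CACCC were searched too, on both strands, and occur in 12.4% and 52.0% of all windows. TATAAA was found once, in 1 of the 2 Tfpi windows, and CACCC in Procr, F2r and both Tfpi windows. The motifs were picked after the sequences had been seen, and a match describes letters only. Nothing is read from these matches about the levels below.

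Vwf was the gene with the steepest rise from the other class to the venous class. Its level was 929 CPM (888 to 972) in venous, 352 (322 to 385) in arterial and 85.9 (81.0 to 90.9) in other NECs, and no 2 of these intervals overlapped. The 383 venous cells, 7.75% of the kept NECs, held 1941 of the 3843 Vwf UMIs, which is 50.5%. Vwf was thus 10.8-fold higher in venous than in other NECs (10.1 to 11.7), 4.10-fold higher in arterial than in other NECs (3.69 to 4.56) and 2.64-fold higher in venous than in arterial NECs. With every cell brought to 1900 randomly drawn UMIs (thinned), Vwf was seen in 64.8% of venous, 40.3% of arterial and 9.83% of other NECs. Epithelial cells of the same library, which should lack the gene, showed it in 4.99% at the same depth (23.1 CPM, median 10806 UMIs before thinning), and the other class was 3.72-fold above them in CPM (3.21 to 4.33). Megakaryocytes and platelets also make VWF. Of 7 platelet markers, the sum was 97.7 CPM in venous, 22.2 in arterial and 60.2 in other NECs, and Pf4 and Itga2b were highest where Vwf was. Pf4 stood at 43.1 CPM in venous, 15.8 in other and 2.15 in arterial NECs, and Itga2b at 39.7, 13.8 and 12.9. Ppbp and Gp9 stood at 2.87 and 1.44 CPM in venous and at 7.25 and 2.34 in other NECs, and Gp1bb was at 0 in venous and arterial NECs. Nrgn and Treml1 stood at 8.14 and 2.39 CPM in venous and at 18.1 and 2.86 in other NECs. The part of platelet RNA in the Vwf level was not tested.

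F8 was also higher in the venous class than in the arterial and other classes. In the venous class, 49 of its UMIs came from the 30 HEV-like cells (118 CPM) and 48 from the 268 cells in venous-like clusters (37.8 CPM). It had 103 UMIs in venous NECs (49.3 CPM, 40.3 to 59.8), 92 in other NECs (6.74 CPM) and 7 in arterial NECs (5.01 CPM), and the last 2 intervals overlapped. The venous level was 7.32-fold that of other NECs (5.47 to 9.80) and 9.84-fold that of arterial NECs (4.61 to 25.1). At 1900 UMIs per cell, F8 was seen in 5.16% of venous cells, 0.763% of other cells, 0.325% of arterial cells and 0.294% of epithelial cells. The intervals of the arterial, other and epithelial shares overlapped, although the CPM of other NECs was 4.81-fold that of epithelial cells (2.68 to 9.37). The arterial over other ratio of F8 was 0.744 (0.291 to 1.60), and it lay between log2 -3.02 and 1.16 over the alternative settings, past 2-fold in 7 of them and in both directions.

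Among the anticoagulant genes, Thbd ran against Vwf. Its level was 359 CPM (349 to 370) in other NECs, 249 (229 to 272) in venous and 158 (138 to 181) in arterial NECs. Arterial cells thus held 0.441 times the level of other cells (0.383 to 0.504), the venous class held 0.694 times, and the other class alone held 86.2% of all Thbd UMIs. Thbd was the most often seen of the 9 genes, in 49.4% of kept NECs at full depth and in 39.9% after thinning, against 1.32% of thinned epithelial cells. The arterial ratio was no longer past 2-fold (log2 -0.80) when the cells removed for the 4 marker genes were kept.

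Procr, the partner of thrombomodulin, followed Vwf rather than Thbd. It stood at 184 CPM (166 to 204) in venous NECs, 69.5 (56.4 to 84.8) in arterial NECs and 50.5 (46.8 to 54.4) in other NECs. Venous cells were 3.65-fold above other cells (3.22 to 4.14), and arterial cells differed from other cells by 1.38-fold (1.10 to 1.71). Thbd and Procr were seen together in 8.02% of thinned venous cells, 2.27% of arterial and 2.77% of other cells. Vwf and Procr were seen together in 21.5%, 3.25% and 0.922% of the same classes. Counted singly in these classes, Procr was seen in 25.2%, 9.09% and 6.46%, Thbd in 32.7%, 23.1% and 42.4%, and Vwf in 64.8%, 40.3% and 9.83%. Joint shares depend on the single ones and were not tested against them. Procr was 2.65-fold higher in venous than in arterial cells, a ratio that was under 2-fold when the limit on mitochondrial UMIs was set at 5% (log2 0.76), when the cells removed for the 4 marker genes were kept (log2 0.34) and when Bmx and Ackr1 alone set the classes (log2 0.39).

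Tfpi had 187 UMIs in venous NECs (89.5 CPM, 77.2 to 103), 461 in other NECs (33.8 CPM) and 15 in arterial NECs (10.7 CPM, 6.01 to 17.7). None of these intervals overlapped. Venous cells were 2.65-fold above other cells (2.23 to 3.15), and arterial cells were at 0.318 times the level of other cells (0.177 to 0.530). The venous level rested in part on HEV-like cells. The 30 venous cells that clustered as HEV-like held 93 of the 187 Tfpi UMIs (224 CPM), while the 268 venous cells in venous-like clusters stood at 57.4 CPM (45.0 to 72.2). With the HEV-like cluster left out, Tfpi was no longer past 2-fold in venous over other NECs (log2 0.83).

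Plat, the main plasminogen activator of resting endothelium, marked arteries. It stood at 174 CPM (153 to 197) in arterial, 42.3 (38.9 to 45.9) in other and 26.8 (20.3 to 34.8) in venous NECs, with no overlap. The arterial level was 4.12-fold that of other NECs (3.53 to 4.79), and the venous level was 0.154 times the arterial one (0.113 to 0.207). Plat was seen in 19.2% of thinned arterial cells, 7.03% of other and 5.73% of venous cells, against 1.47% of epithelial cells. Of the 8 genes with enough UMIs, Plat was the only one that stood 2-fold or more higher in arterial than in venous NECs.

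Plau had few UMIs in every normal class and Plaur was highest in other NECs. Plau had 4 UMIs in arterial, 14 in venous and 103 in other NECs (2.87, 6.70 and 7.55 CPM), and all neighbouring intervals overlapped. At 1900 UMIs, 1.08% of other NECs and 0.441% of epithelial cells showed a Plau UMI, again with overlapping intervals, while the CPM of other NECs was 3.04-fold the epithelial level (1.92 to 5.01). Plaur stood at 33.0 CPM in arterial, 48.4 in venous and 64.6 (60.4 to 69.0) in other NECs, and the arterial and venous intervals overlapped. Epithelial cells of the normal library also held it, at 28.5 CPM.

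F2r had 75 UMIs in venous (35.9 CPM, 28.2 to 45.0), 419 in other (30.7 CPM) and 16 in arterial NECs (11.46 CPM, 6.55 to 18.6). The venous and other intervals overlapped, and the arterial one lay below both. As for Tfpi, HEV-like cells stood out, since 50 of the 75 venous F2r UMIs came from the 30 HEV-like cells (120 CPM) and 9 from the 268 cells in venous-like clusters (7.08 CPM). The venous over arterial ratio was 3.13 (log2 1.65), and log2 0.38 without the HEV-like cluster.

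**Figure D1:**
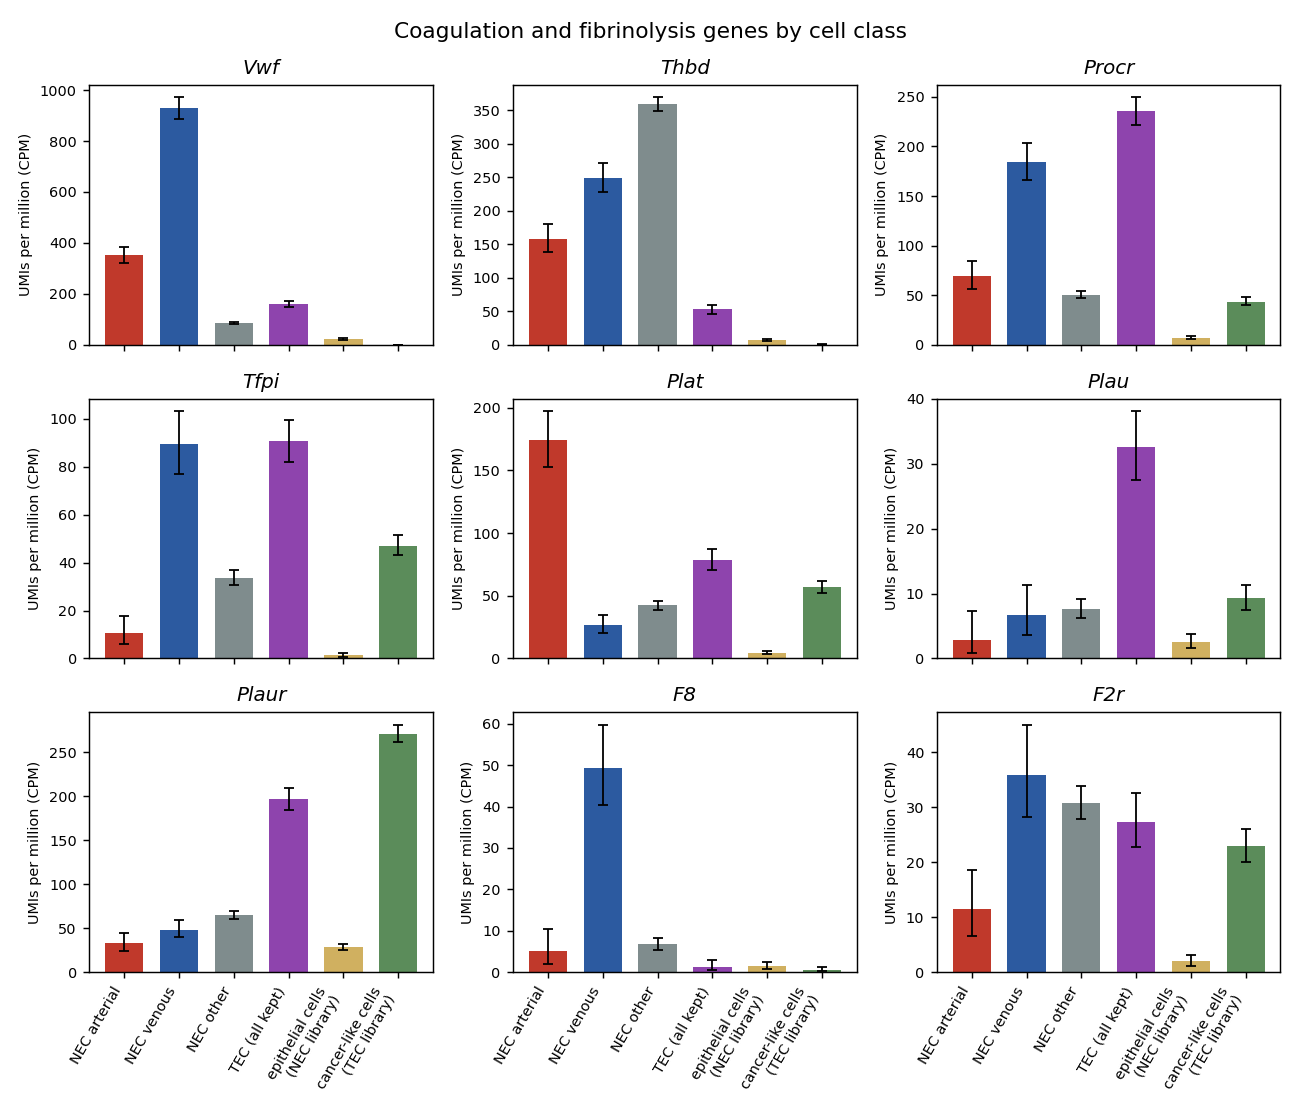
Bars show the level of each gene in CPM (linear axis from 0) in arterial, venous and other NECs, in all kept TECs, and in epithelial cells of the NEC library and cancer-like cells of the TEC library, with 95% Poisson intervals for counting error. Among the EC groups shown, Vwf and F8 peak in venous NECs, Plat in arterial NECs and Thbd in other NECs, while Procr, Plau and Plaur are highest in TECs.

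Taking the 9 genes as a list, 2 (Vwf and Plat) were 2-fold or more higher in arterial than in other NECs and 4 (Thbd, Tfpi, Plau and F2r) were 2-fold or more lower, with the Plau interval reaching 1.00. Of all 11840 genes tested, which are those with 20 or more UMIs in both groups together, 5.90% were as much higher and 8.70% as much lower. In venous over other NECs, 4 genes (Vwf, Procr, Tfpi and F8) were higher and 0 lower, where 6.54% and 9.31% of 11944 genes were. In venous over arterial NECs, 8 of the 9 genes had the 20 UMIs required, of which 5 (Vwf, Procr, Tfpi, F8 and F2r) were higher and 1 (Plat) lower, against 7.89% and 8.06% of 9590 genes. The median log2 ratio of the 9 genes was -0.97 in arterial over other and 0.23 in venous over other NECs, and that of all tested genes was -0.02 and -0.13.

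The same genes were followed over 17 NEC clusters, built with the 9 genes, the related pathway genes and the class genes left out of the variable genes. Of the arterial class, 317 of 370 cells lay in the 2 arterial-like clusters, and 268 of 383 venous cells lay in the 3 venous-like clusters. In turn, cells of the other class made up 46.3% and 58.2% of the arterial-like clusters 4 and 9. They also made up 34.3%, 25.6% and 38.9% of the venous-like clusters 8, 11 and 12. Set by cluster, Vwf was 25.7-fold higher in venous-like clusters than in those neither venous-like nor arterial-like (49.2 CPM). The 3 venous-like clusters were the top 3 for Vwf, at 2338 CPM (2205 to 2477) in cluster 11, 1104 (1040 to 1170) in cluster 8 and 671 (607 to 739) in cluster 12, and none of these overlapped. Cluster 11, with Htr2b and Gria3 among its leading genes, also had the highest Procr (659 CPM) and F8 (153 CPM), so that it stood apart from the other venous-like clusters in all 3 genes. Its Procr level was followed by 196 CPM in cluster 12, which was led by the adhesion genes Sele and Selp, and by 175 CPM in the 47 pericyte-like cells.

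Plat was highest in the 2 arterial-like clusters, at 267 CPM (235 to 302) in cluster 9 and 164 (142 to 188) in cluster 4, and the next cluster stood at 43.3. Vwf ran in the opposite order, with 306 CPM in cluster 4 and 138 in cluster 9. The HEV-like cluster of 78 cells was first for Tfpi (195 CPM, 164 to 230) and for F2r (156 CPM, 128 to 188) and came after cluster 11 for F8 (93.2 CPM), whereas its Vwf level was 29.2 CPM. The HEV-like cluster thus had more Tfpi and F2r and less Vwf than each of the 3 venous-like clusters, while its F8 level lay below that of cluster 11 and above those of clusters 8 and 12 (8.82 and 13.1 CPM). The HEV markers of the HEV-like cluster summed to 158400 CPM. Of its 8 lymphatic markers, Prox1, Mmrn1, Pdpn and Reln were at 0, while Lyve1, Ccl21a, Flt4 and Maf were above 0.

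Thbd was highest in 4 clusters that no marker list named, at 639 CPM in cluster 2 (led by Meis2), 576 in cluster 6, 528 in cluster 3 and 520 in cluster 7, with overlap between each neighbouring pair, and 357 in the next one. The capillary-like clusters 0 and 1 held 225 and 132 CPM and the tip-like cluster the lowest level, 77.4 CPM. Plaur was highest in cluster 3, which carried interferon genes (171 CPM), cluster 10 (160), cluster 5 (116), cluster 7 (108) and cluster 12 (103), whose intervals overlapped pair by pair. Clusters 5 and 7 were led by genes such as Hspa1a, Atf3, Egr1 and Arc, which also respond to the handling of tissue, and their part in the Plaur level was not tested. The highest Plau level was that of the 47 pericyte-like cells, which held 15 of the 122 Plau UMIs of all kept NECs (46.8 CPM).

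**Figure D2:**
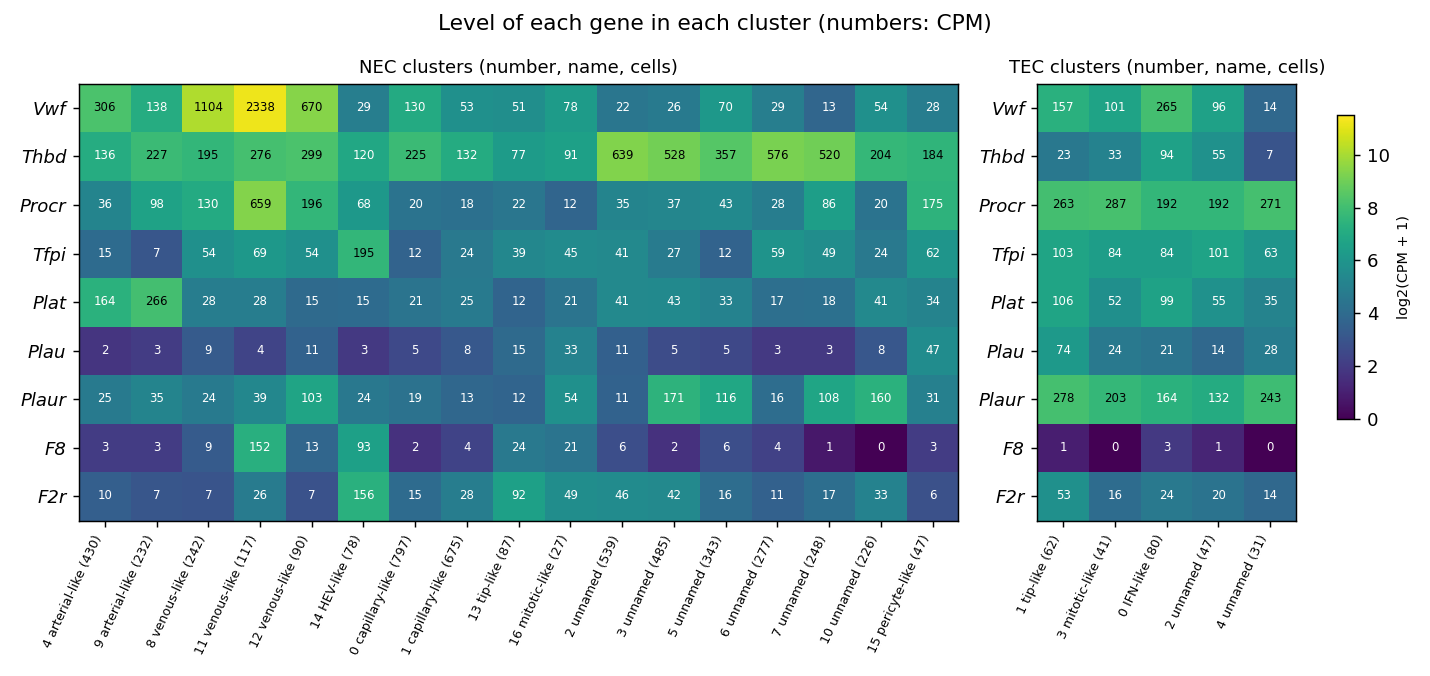
The number in each field is the CPM of a gene (row) in a cluster (column, with its number, name and cells), and the color is log2(CPM + 1), for NECs at left and TECs at right. Vwf is brightest in the 3 venous-like NEC clusters, Plat in the arterial-like ones and Tfpi and F2r in the HEV-like one, while Procr and Plaur are high in all 5 TEC clusters.

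For each gene, the 2 genes whose log2(CPM + 10) was most correlated over the 15 NEC clusters of 50 or more cells were looked up among 9532 genes. These clusters share 1 library and so give a description only. They were Ppp1r14a and Mras for Vwf (Pearson r 0.95 for both), Bicc1 and Mark4 for Thbd (0.90 and 0.90), Tgfa and Tmem2 for Procr (0.91 and 0.91) and Bace2 and Smap2 for Tfpi (0.92 and 0.92). For Plat they were Col8a1, a collagen gene, and Tmem178 (0.93 and 0.92), for Plaur 9330020H09Rik and Spata2 (0.91 and 0.91), for F8 the NF-kB subunit gene Nfkb2 and Gm10851 (0.94 and 0.93), for F2r B2m and AC126280.1 (0.88 and 0.85), and for Plau Slc5a5 and Map1b (0.84 and 0.82).

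TECs were compared with NECs next, which puts the normal and the tumor vessel side by side with 1 library each, so that the tumor and the library cannot be told apart. Of the 9 genes, 4 were 2-fold or more higher in TECs (Plau, Plaur, Procr and Tfpi) and 2 were 2-fold or more lower (Thbd and F8), while Vwf, Plat and F2r were within 2-fold. Of 12230 genes tested, 10.8% were as much higher and 24.3% as much lower. The median log2 ratio was 0.63 for the 9 genes and -0.23 for all tested genes. Urokinase, its receptor and 2 anticoagulant genes were thus higher and thrombomodulin and F8 lower.

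Plau had 122 UMIs in NECs (7.04 CPM, 5.85 to 8.41) and 151 in TECs (32.5 CPM, 27.5 to 38.1), a ratio of 4.62 (3.61 to 5.91). Its receptor Plaur stood at 59.6 CPM (56.0 to 63.3) in NECs and 197 (184 to 210) in TECs, 3.30-fold (3.02 to 3.61). At 1900 UMIs per cell, Plaur was seen in 27.2% of TECs and 8.33% of NECs, and Plau in 5.44% and 1.02%. Both were seen in 1.67% of thinned TECs and 0.0261% of thinned NECs.

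The cancer-like cells of the tumor library made Plaur themselves, at 271 CPM (36.7% of thinned cells, median 51995 UMIs before thinning), and Plau at 9.30 CPM. The cancer cell genes of the filter were nearly gone from the kept TECs, with Rhox5 at 4.09 CPM against 736 in cancer-like cells. Wfdc2, a cancer cell marker that the filter did not use, stood at 6.24 against 193 CPM, which is 3.24%. The part of cancer cell RNA in the Plaur and Plau levels was not tested. Macrophages make Plaur too. The 10 immune markers summed to 486 CPM in kept TECs and 67.6 in NECs, of which Cd74, which ECs also express, made up 451 and 46.5. Lyz2, C1qa and C1qb stood at 1.29, 0.861 and 1.51 CPM in TECs (4.10, 0.519 and 0.635 in NECs), while Coro1a stood at 12.3 against 2.83, Fcer1g at 11.8 against 8.66, Cd68 at 3.23 against 2.13 and Laptm5 at 3.01 against 0.981, and Cd3e was at 0 in TECs. The part of immune cell RNA in the Plaur level was not tested.

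Procr had 71.5 CPM (67.5 to 75.5) in NECs and 235 (222 to 250) in TECs, 3.29-fold (3.03 to 3.58). It was seen in 28.9% of thinned TECs against 8.61% of thinned NECs, and in 8.88% of cancer-like cells (43.6 CPM). The TEC level was also above that of venous NECs, by 1.28-fold (1.14 to 1.44). Tfpi stood at 39.4 CPM (36.5 to 42.4) in NECs and 90.6 (82.2 to 99.7) in TECs, 2.30-fold (2.03 to 2.60), and the TEC level and the venous NEC level of 89.5 overlapped. Cancer-like cells held Tfpi at 47.1 CPM, and without the rule on cancer cell genes the TEC over NEC ratio of Tfpi was under 2-fold (log2 0.86).

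Thbd ran the other way. It stood at 329 CPM (320 to 337) in NECs and 53.0 (46.5 to 60.0) in TECs, 0.161 times (0.141 to 0.183), and its TEC level was below that of each NEC class. At equal depth, 9.62% of TECs and 39.9% of NECs showed it, and 0 of 169 thinned cancer-like cells, whose exact interval reaches 2.16%. Among TECs at 1900 UMIs, 2.51% held Thbd and Procr together, against 3.32% of NECs. F8 had 216 UMIs in NECs (12.5 CPM) and 6 in TECs (1.29 CPM, 0.474 to 2.81), 0.104 times (0.0376 to 0.229), and 0 of the 6 were in the 14 TECs with a venous gene. Of the 216 NEC UMIs, 75 came from cluster 11 and 67 from the HEV-like cluster. Against other NECs alone, the TEC level of F8 was 0.192 times (0.0685 to 0.433). At 1900 UMIs per cell, F8 was seen in 1 of 239 TECs (0.418%) and 45 of 3831 NECs (1.18%).

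The TEC level of Vwf lay between those of the normal classes, above other NECs and below arterial (352 CPM) and venous NECs. At 161 CPM (150 to 173) it was 0.726 times the NEC level of 222 (0.670 to 0.785), 1.88-fold that of other NECs (1.71 to 2.06) and 0.173 times that of venous NECs (0.159 to 0.189). The 14 arterial TECs stood at 370 CPM of Vwf and the 14 venous TECs at 253, while the 232 others stood at 136. Vwf was at 0.484 CPM in cancer-like cells. Plat stood at 78.8 CPM in TECs and 50.8 in NECs, 1.55-fold (1.37 to 1.75), with 56.9 CPM in cancer-like cells, and F2r at 27.3 and 29.8 CPM, with overlapping intervals.

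**Figure D3:**
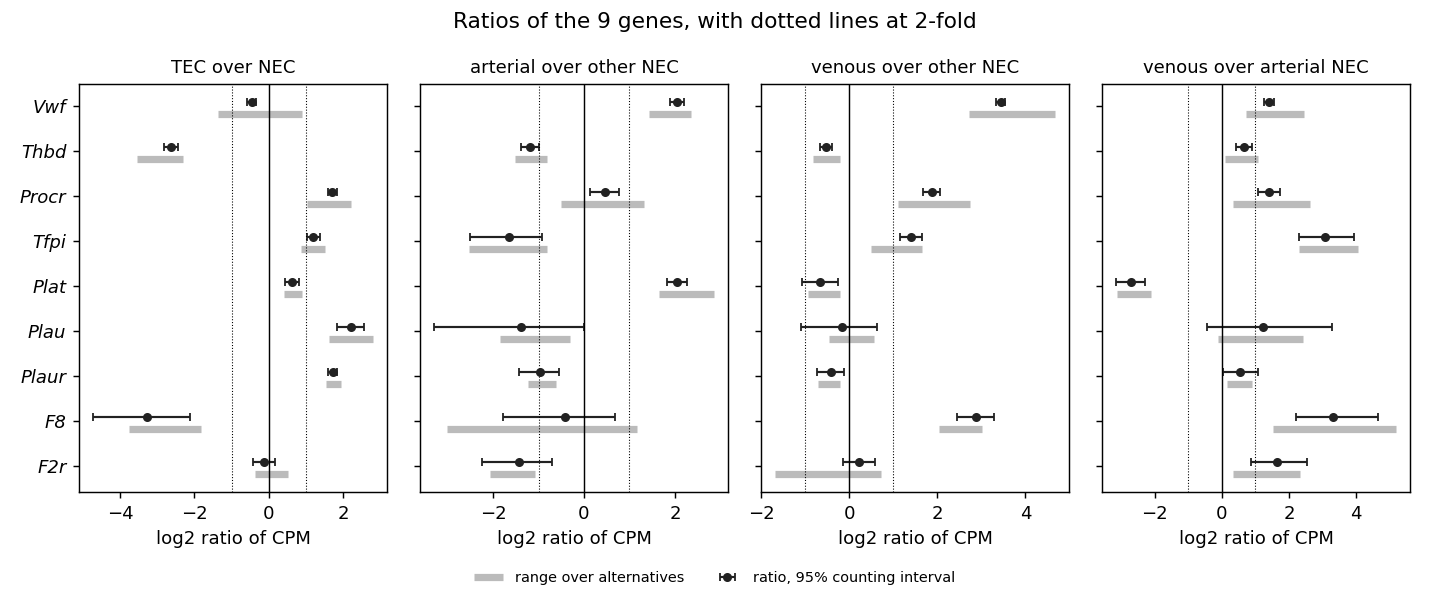
Points are log2 ratios of CPM for the 9 genes in 4 comparisons with 95% exact conditional binomial intervals for counting error, and gray bars span all alternative settings, with dotted lines at 2-fold. Thbd and F8 lie left of the lower line and Procr, Plau and Plaur right of the upper line in TEC over NEC under every setting, and Plau had 18 UMIs in venous plus arterial NECs and was not tested there.

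The TECs formed 5 clusters. Procr varied little among them, from 192 to 287 CPM, and Tfpi from 62.6 to 103, with each neighbouring pair of Tfpi overlapping. Thbd was highest in the IFN-like cluster of 80 cells (94.5 CPM) and stood at 23.1 CPM in the tip-like cluster of 62 cells. Tip cells lead new vessel sprouts. The tip-like cluster had the highest Plau (74.0 CPM, 58.4 to 92.5), Plaur (278 CPM) and F2r (52.9 CPM), and the intervals of F2r did not overlap those of the next cluster. Vwf was highest in the IFN-like cluster (265 CPM, 239 to 293) and lowest in cluster 4 (13.9 CPM on 2 UMIs), which held 31 cells with a median of 3299 UMIs, 1.06% of them mitochondrial. The IFN-like cluster also carried the arterial markers Gja4, Hey1, Sox17, Sema3g, Efnb2 and Fbln5 at 2-fold or more. The 14 arterial TECs stood at 370 CPM of Vwf. Whether the Vwf and Thbd levels of this cluster go with its interferon or its arterial genes was not tested.

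Clusters of one name could be set side by side for tip-like and mitotic-like cells. Tip-like TECs against the 87 tip-like NECs had 12.1-fold more Procr (6.28 to 26.7), 23.0-fold more Plaur (9.73 to 71.2), 8.74-fold more Plat (3.63 to 27.4) and 5.10-fold more Plau (2.24 to 14.3), and 0.298 times the Thbd (0.168 to 0.522). The normal tip-like cells held only 9 Procr, 5 Plaur, 5 Plat and 6 Plau UMIs, which sets the width of those intervals. Vwf was 3.08-fold higher in tip-like TECs (1.95 to 5.12) and Tfpi 2.66-fold higher (1.56 to 4.81), on 21 and 16 NEC UMIs. F2r was within 2-fold. Mitotic-like TECs against the 27 mitotic-like NECs had 3.80-fold more Plaur (2.18 to 7.24) and 0.365 times the Thbd (0.212 to 0.645), while the Plau ratio was 0.728 (0.325 to 1.84) and Procr rested on 3 NEC UMIs (23.2-fold, 7.88 to 113). Plat was 2.53-fold higher on 5 NEC UMIs (1.03 to 8.06) and F2r was at 0.318 times (0.147 to 0.718). Vwf and Tfpi were within 2-fold.

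The 9 genes were then read beside 64 other genes of the same pathways in 8 lists, of which 49 were in both tables and 55 in the NEC table. In TECs over NECs, 42 had the 20 UMIs required, and 9 were 2-fold or more higher, 14 lower and 19 neither, where 10.8% of all tested genes were higher and 24.3% lower. In arterial over other NECs, 6 of 42 were higher and 7 lower (5.90% and 8.70% of all tested genes). In venous over other NECs, 10 of 42 were higher and 4 lower (6.54% and 9.31%), and in venous over arterial NECs 8 of 35 were higher and 4 lower (7.89% and 8.06%). The lists are small, and nothing is called particular to them from these counts.

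Among the fibrinolysis genes, Thbs1, the gene of thrombospondin-1, stood at 258 CPM in TECs against 19.5 in NECs (13.2-fold) and at 0.291 CPM in cancer-like cells. Anxa2, which binds plasminogen at the cell surface, was 2.90-fold higher, at 1219 against 421 CPM, and its cancer-like level was 965 CPM. Serpine2 was at 0.261 times (0.140 to 0.448), and S100a10, Lrp1 and Plgrkt were within 2-fold. Thbs1 also differed between the NEC classes, at 48.4 CPM in venous, 16.4 in other and 4.30 in arterial cells, and Serpine2 was lower in venous (2.87 CPM) than in other NECs (13.2 CPM).

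Of the 3 other protease-activated receptor genes, F2rl2 (PAR3) and F2rl3 (PAR4) were higher in TECs, at 10.1 against 0.462 CPM and at 20.02 against 2.48 CPM, while F2r was within 2-fold. Of all tested genes, 10.8% were 2-fold or more higher in TECs. F2rl1 (PAR2) was an arterial gene, with 68 UMIs in arterial NECs (48.7 CPM), 20 in other NECs (1.47 CPM) and 7 in venous NECs (3.35 CPM). The venous over other ratio of F2rl1, 2.29, had an interval that includes 1 (0.817 to 5.63), and F2rl1 was within 2-fold between TECs and NECs. F2rl3 had 0 UMIs in venous and 43 in other NECs, at least 2.19-fold lower with 3 UMIs as the limit that a count of 0 allows.

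The genes of VWF handling and storage went both ways. In TECs, 2 of 9 tested were higher (10.8% of all tested genes), Angpt2 at 523 against 18.5 CPM (28.3-fold) and Cd63 at 432 against 82.5 CPM, and 5 were lower (24.3% of all tested genes), Selp at 31.0 against 157 CPM, Mmrn1 (0.0494 times), Rab27a (0.224), Rab3d (0.330) and Rab27b (0.152 times, 0.0179 to 0.580). Angpt2 and Selp both share the Weibel-Palade body with VWF, Selp is also among the venous markers and Cd63 was higher still in cancer-like cells (1264 CPM). In venous over other NECs, 5 of 9 were higher and 0 lower (6.54% and 9.31% of all tested genes), with Selp at 1027 against 37.1 CPM, Mmrn1 at 30.6 against 1.90, Cd63 at 196 against 52.1, Rab27a at 23.5 against 10.1 and Rab27b at 9.58 against 1.61. Mmrn1 is also on the lymphatic marker list. All others on that list but Flt4 were higher beside it in the venous class, such as Prox1 (26.8 against 3.96 CPM) and Lyve1 (50.3 against 6.08 CPM). Flt4 was lower there (23.0 against 60.7 CPM). The part of lymphatic genes in the Mmrn1 level was not tested. In arterial over other NECs, Cd63, Mmrn1 and Rab27b (4.30 against 1.61 CPM, with an interval that includes 1) were past 2-fold, and Selp was lower (6.45 CPM). In venous over arterial NECs, Selp (159-fold), Mmrn1 (3.29-fold), Rab27a (3.27-fold) and Rab27b (2.23-fold, 0.863 to 6.78) were higher, and so were Thbs1 (11.2-fold) and Tfpi2 (8.36-fold, 2.08 to 72.8).

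Of 5 other anticoagulant genes with enough UMIs, 1 was higher and 1 lower in TECs, where 10.8% of all tested genes were higher and 24.3% lower. Gas6, a vitamin K dependent ligand related to protein S, stood at 9.47 CPM in TECs and 315 in NECs (0.0300 times, 0.0218 to 0.0404), and at 155 CPM in the epithelial cells of the normal library. Tfpi2 was 3.03-fold higher in TECs (20.5 against 6.75 CPM), at 0.236 times in arterial over other NECs on 2 UMIs (0.0281 to 0.878), and Serpinc1, Pros1 and Anxa5 were within 2-fold. All 5 genes of factor VIII and vitamin K handling were within 2-fold in TECs over NECs (10.8% of all tested genes were higher and 24.3% lower). Mcfd2 was 2.10-fold higher in arterial over other NECs. Tissue factor (F3) had 5 UMIs in TECs and 100 in NECs (1.08 and 5.77 CPM) and stood at 431 CPM in the epithelial cells of the normal library. F10 had 0 UMIs in TECs and 46 in NECs, a level at least 4.11-fold lower, with 3 UMIs as the limit a count of 0 allows. Among NEC classes, F10 was the only one of 4 procoagulant genes past 2-fold in venous over other NECs (0 against 44 UMIs). It was lower there, as were 9.31% of all tested genes. In arterial over other NECs, Fgg was lower (0.439 times, 0.207 to 0.822), and F10 was at 0.444 times on 2 UMIs (0.0522 to 1.70).

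Among genes that hold back platelets, Nt5e, which makes adenosine, was higher in TECs (64.6 against 11.1 CPM) and in venous over other NECs (71.8 against 2.20 CPM, 32.7-fold), and Ptgs1, a prostaglandin synthase, was lower in TECs (9.47 against 126 CPM) and in arterial NECs (33.7 against 111 CPM) but higher in venous NECs (273 CPM). Entpd1, which breaks down ADP, was 2.51-fold higher in arterial and 2.20-fold higher in venous than in other NECs. Ptgs2 was lower in TECs on 2 UMIs (0.143 times, 0.0169 to 0.545). Nt5e in arterial NECs rested on 1 UMI (0.326 times, 0.00799 to 1.96).

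The flow-responsive transcription factors Klf2 and Klf4, which are known to raise Thbd in ECs, were lower in TECs, Klf4 at 114 against 810 CPM (0.141 times, 0.129 to 0.154) and Klf2 at 680 against 1523 CPM (0.446 times). Gata2 stood at 26.3 against 78.1 CPM (0.336 times), and Erg (0.504 times) and Fli1 were within 2-fold. In NECs, Klf2 was at 2099 CPM in arterial, 1582 in other and 779 in venous cells and Klf4 at 1148 in arterial and 486 in venous cells. Klf4 stood at 827 CPM in other cells, so that both factors were highest in the arterial class, which had the lowest Thbd level of the NEC classes. Gata2 was likewise lower in venous (46.9 CPM) than in arterial NECs (136 CPM). The part of these factors in the Thbd levels was not tested, between TECs and NECs or among the NEC classes.

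**Figure D4:**
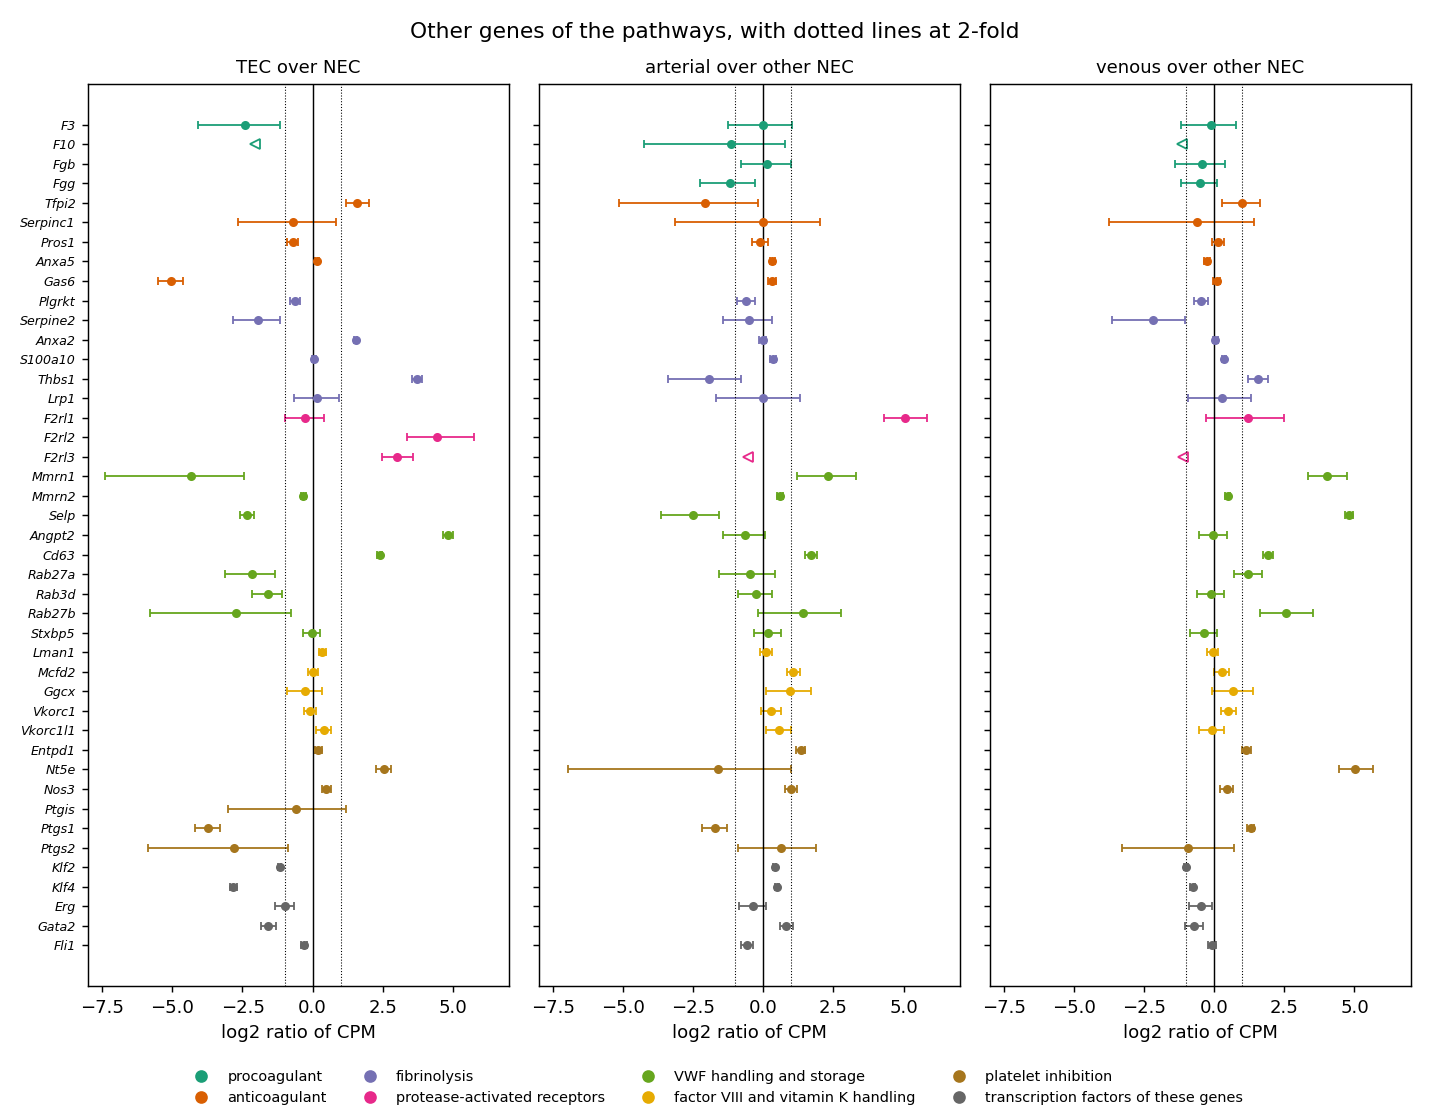
Points are log2 ratios of CPM with 95% counting intervals for the pathway genes described here with 20 or more UMIs, colored by list, in TEC over NEC, arterial over other NEC and venous over other NEC. Open triangles are bounds at 3 UMIs for genes at 0 in the first group. Thbs1, Angpt2 and F2rl2 lie far right in TECs and Gas6 and Klf4 far left, while Selp and Nt5e lie far right in venous NECs and F2rl1 in arterial NECs.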

How the data were processed

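Per the labels and the methods, live CD45-/CD31+ cells were sorted and run on the 10x Genomics platform, and the authors mapped reads with Cell Ranger (build mm10) and worked in Seurat. The versions and the annotation are not given in the sources used here. The authors deposited 2 tables of UMI counts, whole numbers with no normalization, 1 per library, and these were used as deposited. The 9 genes, the pathway and marker lists and the comparisons were chosen with earlier results of these data known. Sums of counts over cells gave CPM with exact Poisson intervals, ratios had exact conditional binomial intervals and shares had Clopper-Pearson intervals, at 95%. A gene was tested if both groups together held 20 or more UMIs and was called at 2-fold or more. A group at 0 was set at 3 UMIs for a bound. Cells were thinned to 1900 UMIs for shares, which left out 1109 NECs and 22 TECs. Each library was clustered alone (igraph 0.11.9, scikit-learn 1.9.0, 4000 variable genes, 20 principal components, 20 neighbours, resolution 0.8), leaving the 9 genes, pathway genes and class genes out of the variable genes, and a cluster was named for the list with most markers at 2-fold or more and in 25% or more of its cells, if these were 3 or more and 1 was among its top 10 genes. The 9 genes gave no cluster its name, while the class genes counted as markers. No doublet caller was run, and an alternative left out the deepest 5% of cells. Kept cells held 17327221 UMIs in NECs and 4646103 in TECs. The named genes were the 9 genes, those pathway genes that were past 2-fold with ranges for the others, the 2 most alike genes, markers and genes that led a cluster. Alternatives changed the limits on genes and mitochondrial UMIs, the cell filters, the class rule, the summing and the depth. Software was scipy 1.17.1, pandas 2.3.3, numpy 2.4.6, scanpy 1.11.5 and matplotlib 3.10.9 under Python 3.11.15. The ratio and its interval were tested on simulated data. The values of 1 pathway gene are not reported here, although the counts over all pathway genes include it.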

Additional observations from a re-analysis of the deposited data

How the results depend on the processing

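Of the 22 ratios past 2-fold among the 9 genes in 4 comparisons, 14 kept the same call in all 15 alternatives of their comparison, and of the 14 other ratios, which include that of Plau in venous over arterial NECs on too few UMIs to be tested, 7 did. With Bmx alone and Ackr1 alone as class genes, 4 genes were higher in arterial over other NECs, with Procr and F8 added, and 3 were higher in venous over arterial NECs, with Vwf and Procr lost. With arterial-like and venous-like clusters as classes, 1 gene, F2r, was lower in venous over other NECs. With 1 or more UMIs in each group in place of 20 in both, the genes called over all genes were 1448 higher in arterial over other, 1818 higher in venous over other, and 1342 higher and 1356 lower in venous over arterial NECs, against 698, 781, 757 and 773. No other count of called genes moved by more than 1.5 times. Plau in arterial over other NECs kept its call in 10 of 15 alternatives, F2r in venous over arterial NECs in 10 and Tfpi in venous over other NECs in 11. Setting the median of the tested genes to 0, leaving out the pericyte-like cluster and, for TECs over NECs, leaving out the shallow TEC cluster or the mitotic-like clusters were added after seeing the data. No lymphatic-like cluster was found, so the alternative without one left out the HEV-like cluster alone. The depth of the arterial class limits Plau and F8 there, at 4 and 7 UMIs. No paired analysis was possible because each condition has 1 library.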
